A study of Homo sapiens with 16 samples.

Results

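The mitosis and G2/M genes are 58 genes whose products carry a cell from the end of DNA replication through division, and they were chosen by name from the 62703 genes of the count table. Messenger RNA was counted by BRB-seq, a method that barcodes each sample at reverse transcription and reads 1 tag at the 3′ end of a transcript, in 16 spheroid libraries. The spheroids came from LNCaP, 22Rv1 and PC3 cells, all established from metastatic or relapsed prostate cancer. LNCaP is androgen dependent, 22Rv1 grows with little androgen, and PC3 lacks most of the androgen-regulated prostate program. Each line was transfected with a pooled siRNA at 25 pmol, either non-targeting (siCtrl) or against MED12 (siMED12), spent 3 days in 2D and was collected after 4 more days as spheroids. There were 3 siCtrl and 3 siMED12 libraries of LNCaP, 3 and 2 of 22Rv1, and 3 and 2 of PC3. A transient pool was used, so no clone was selected and knockdown was measured 7 days after transfection. The labels do not say whether replicates came from separate cultures, and the p-values below then measure only the spread between these libraries.

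Entry into mitosis is driven by CDK1 bound to cyclin B, which the CDC25 phosphatases switch on. Aurora and Polo-like kinases, kinesins and spindle proteins then build the spindle, and the spindle checkpoint holds back the anaphase-promoting complex (APC/C) until every chromosome is attached. Most of these genes are transcribed late in the cell cycle under the MuvB, B-MYB and FOXM1 factors, so that in tumor material their level follows the share of dividing cells. MED12 is the subunit that activates the kinase module of Mediator, the complex that links transcription factors to RNA polymerase II. In bulk spheroids, fewer dividing cells and less mitotic RNA per dividing cell cannot be told apart.

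Promoters of this program share a pair of sequence elements, the CCAAT box bound by NF-Y and the CHR (TTTGAA or TTCGAA) bound by MuvB complexes. In the RefSeq promoter table (GRCh38.p14, 250 bases before to 50 bases after each start site), 49 of the 58 genes had 61 windows; AURKA, BUB3, TTK, UBE2C, BIRC5, TPX2, HMGB2, CDCA2 and ANP32E were not matched. Searched on both strands, CCAAT was present in 67.2% of these windows against 34.6% of all 35116 windows in the table, and a CHR in 68.9% against 16.4%. Windows with both made up 54.1% of the mitotic windows and 6.38% of all, and 42.6% against 10.8% held 2 or more CCAAT boxes. These shares describe letters in a window, and none of the listed genes was chosen by its promoter. With the bases after the start site left out, a CHR was found in 50.8% of the mitotic windows and 14.3% of all.

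The 130 bases before the start site of 6 genes are printed 5′ to 3′ on the strand of the gene, with each CCAAT (or its reverse complement ATTGG) and each CHR in capitals. CCNB2, PLK1, CDC20 and MKI67 are shown because they hold both elements, and KIF20A and TOP2A because they hold a pair of CCAAT boxes and no CHR by these letters in this stretch.
CCNB2, chr15:59105016-59105145, plus strand: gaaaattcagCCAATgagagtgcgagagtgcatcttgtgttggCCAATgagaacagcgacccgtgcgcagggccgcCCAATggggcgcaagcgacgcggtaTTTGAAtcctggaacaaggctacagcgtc
PLK1, chr16:23678759-23678888, plus strand: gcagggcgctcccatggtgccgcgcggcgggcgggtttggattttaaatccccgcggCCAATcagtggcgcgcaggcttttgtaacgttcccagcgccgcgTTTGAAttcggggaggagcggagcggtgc
CDC20, chr1:43358851-43358980, plus strand: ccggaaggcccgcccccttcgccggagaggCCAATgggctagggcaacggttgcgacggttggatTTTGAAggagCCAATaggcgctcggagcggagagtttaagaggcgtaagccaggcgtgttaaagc
MKI67, chr10:128126424-128126553, minus strand: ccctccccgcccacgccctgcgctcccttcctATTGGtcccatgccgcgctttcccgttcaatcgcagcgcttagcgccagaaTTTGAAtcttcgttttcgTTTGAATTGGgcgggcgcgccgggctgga
KIF20A, chr5:138178982-138179111, plus strand: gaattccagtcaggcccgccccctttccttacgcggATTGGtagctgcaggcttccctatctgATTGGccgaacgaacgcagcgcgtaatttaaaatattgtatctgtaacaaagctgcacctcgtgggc
TOP2A, chr17:40417897-40418026, minus strand: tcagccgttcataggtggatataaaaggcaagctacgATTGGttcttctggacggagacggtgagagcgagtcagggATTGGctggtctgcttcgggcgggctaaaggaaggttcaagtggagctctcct

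In CCNB2 the 3 CCAAT boxes began at -120, -87 and -54 from the start site, and the CHR followed at -29. PLK1 had its CCAAT at -73 and its CHR also at -29. In MKI67 the second CHR, at -29, shared 1 base with the reversed CCAAT at -24.

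Of the 58 genes, 55 were among the 10566 genes that passed the count filter and were tested. The kinesin KIF20B (0 to 11 counts per library), the kinetochore motor CENPE (2 to 11 counts) and the spindle protein NUSAP1 (0 to 3 counts) did not pass it. Library totals ran from 479118 to 993807 counts, of which the 58 genes held 0.312% to 0.572%. The limit that a count of 0 allows was 3.15 to 6.22 CPM (counts scaled to a common library total, with TMM scaling factors), and it covers counting error only.

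MED12 itself was covered by few counts. It had 5 to 22 counts per library, and in 22Rv1 its level was 19.8 ± 3.39 CPM (SD, n = 3) with siCtrl and 8.2 ± 1.10 CPM (n = 2) with siMED12. The log2 fold change of MED12 was -1.28 (SE 0.455, adjusted p = 0.175 by edgeR's quasi-likelihood test) in 22Rv1, -0.50 (adjusted p = 0.878) in LNCaP and -0.22 (adjusted p = 0.987) in PC3. In 22Rv1 the 95% interval was -2.21 to -0.35 (unadjusted p = 0.00836 by edgeR) and the groups did not overlap, while those of LNCaP and PC3 did. At these counts no MED12 call passed the adjusted threshold in any line, and the siMED12 groups are named by their labels. The paper describes knockdown in its spheroids as highly efficient.

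Cell type markers were checked in every library. The epithelial genes KRT8, KRT18, EPCAM and CDH1 were detected in all 16, with a sum of 1326 to 2759 CPM, whereas 3 to 6 of the 6 fibroblast markers were at 0. The 5 genes that mark PC3 (CAV1, VIM, ANXA1, CAV2 and AXL) summed to 1281 to 1519 CPM in PC3. They summed to 56.8 to 59.0 CPM in the 22Rv1 siCtrl libraries, 78.5 CPM in replicate 1 of siMED12 and 139.8 CPM in its replicate 3. The LNCaP libraries ranged from 41.4 CPM (siMED12 replicate 2) to 143.1 CPM (siCtrl replicate 3), with 111.5 CPM in siMED12 replicate 3. In 22Rv1 none of the 5 was at 0 in the 2 siMED12 libraries or in siCtrl replicate 3, and 1 was at 0 in each of siCtrl replicates 1 and 2. CAV1 was higher with siMED12 in 22Rv1 (log2 fold change 1.64, SE 0.307, adjusted p = 0.00206 by edgeR). Without siMED12 replicate 3 this call was lost (1.22 on the log2 scale, adjusted p = 0.116). In PC3 the 6 androgen-regulated genes summed to 184.6 CPM in siMED12 replicate 3 and to 46.2 to 77.4 CPM in the other 4 libraries. KLK2, 1 of these 6, was lower with siMED12 in LNCaP (log2 fold change -0.89, SE 0.177, adjusted p = 0.0113 by edgeR). That call was lost with DESeq2 and with limma (adjusted p = 0.566). It was also lost by edgeR without siMED12 replicate 2 (adjusted p = 0.147), siCtrl replicate 2 (0.141) or siCtrl replicate 3 (0.0865).

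In 22Rv1 spheroids, mitotic genes had a median under 0 with siMED12 in each role, but of the 55 tested members only UBE2C passed the test. Summed over the 58 genes, the level was 4949, 4728 and 4469 CPM in the siCtrl libraries and 4017 and 3788 CPM in the siMED12 libraries. The groups did not overlap, and the mean was 17.2% lower with siMED12. The same sum differed by -1.07% in LNCaP and by 0.563% in PC3, both smaller than the spread between libraries.

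**Figure D1:**
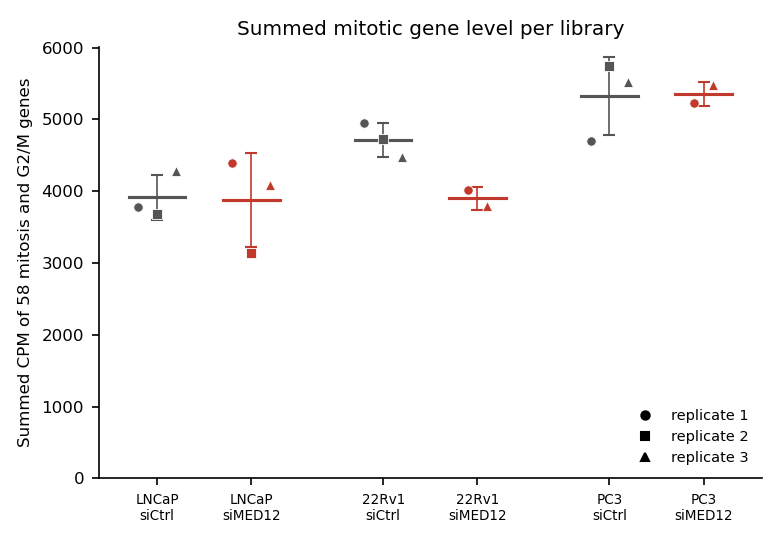
Summed level of the 58 mitosis and G2/M genes in CPM (y axis, from 0) for each library, by line and treatment. Points are libraries with a symbol per replicate number, horizontal lines are means and bars are SDs. The 2 siMED12 libraries of 22Rv1 lie below its 3 siCtrl libraries, and the groups of LNCaP and of PC3 overlap.

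Of the 55 tested genes, 46 (83.6%) had a log2 fold change under 0 in 22Rv1, where 48.7% of all tested genes did. Their median was -0.29, a level 18.4% lower, against a median of 0.0061 over all genes. In 22 of them (40.0%) every siMED12 library lay below every siCtrl library, which held for 12.9% of all genes. At an unadjusted p under 0.05, 12 were lower and 0 higher, and 5.37% of all genes were lower by that rule. After adjustment over all genes 1 member passed (1.82% of the members), against 1.84% of all genes. The shift was therefore seen in counts and in the median, and the number of called members was near the background.

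UBE2C (ENSG00000175063, chr20:45812576-45816957, plus strand), the ubiquitin-conjugating enzyme that starts chains on APC/C substrates, was this gene. Its level was 347.5, 306 and 299 CPM in the siCtrl libraries of 22Rv1 and 207 and 224.5 CPM in the siMED12 libraries. The groups did not overlap, and the means were 317 ± 26.2 CPM (SD, n = 3) and 216 ± 12.5 CPM (n = 2). The log2 fold change was -0.56 (SE 0.146, 95% interval -0.86 to -0.26, adjusted p = 0.0361, edgeR). It did not pass with DESeq2 (adjusted p = 0.0584), nor when any single library of 22Rv1 was left out (adjusted p from 0.0512 to 0.361). In LNCaP its log2 fold change was -0.080 (SE 0.129), and in PC3 it was -0.066 (SE 0.132), with overlapping groups in both.

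CDK1, the kinase that triggers mitosis, had the lowest fold change among the members in 22Rv1. It measured 49.5, 36.8 and 38.5 CPM with siCtrl and 20.2 and 23.1 CPM with siMED12. Its log2 fold change was -0.96 (SE 0.275, 95% interval -1.52 to -0.40), and the adjusted p of 0.0693 from edgeR missed the threshold. It passed with limma on the deposited log2 CPM (adjusted p = 0.0257) and missed it with DESeq2 (adjusted p = 0.231). All 9 genes of the CDK1 engine, that is CDK1, the cyclins CCNA2, CCNB1, CCNB2 and CCNF, the phosphatases CDC25B and CDC25C, and the CDK-binding proteins CKS1B and CKS2, had values under 0, with a median of -0.41. Among them CCNB1, the main mitotic cyclin, was at 213, 224 and 190 CPM with siCtrl and at 166.5 and 132 CPM with siMED12 (log2 fold change -0.47, SE 0.187, adjusted p = 0.252).

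The mitotic kinases and checkpoint genes were split. AURKB, the kinase of the chromosomal passenger complex, was at 91.1, 93.6 and 83.4 CPM with siCtrl and at 58.3 and 50.02 CPM with siMED12, which gave -0.71 on the log2 scale (SE 0.242, adjusted p = 0.153). PLK1, which acts from centrosome maturation to cytokinesis, was at -0.37 on the log2 scale (SE 0.218, adjusted p = 0.543). TTK, the kinase that starts checkpoint signaling, lay the other way, at 22.1, 21.7 and 11.6 CPM with siCtrl and 25.5 and 30.8 CPM with siMED12 (log2 fold change 0.61, SE 0.324, adjusted p = 0.477). It was the member with the highest value in 22Rv1 and the only 1 of the 55 whose siMED12 libraries both lay above every siCtrl library there, an order found for 13.8% of all genes. Over the 8 genes of this role the median was -0.21, with 6 under 0.

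For the APC/C and its substrates, all 3 genes were under 0. CDC20, which activates the APC/C, had overlapping groups at 199 to 264 CPM with siCtrl and 178 and 208 CPM with siMED12. Its log2 fold change was -0.24 (SE 0.174, adjusted p = 0.648), less than the spread between libraries. PTTG1, the securin that the APC/C removes at anaphase, was at -0.11.

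Among the chromosomal passenger and cytokinesis genes, 6 of 7 were under 0 with a median of -0.28. KIF20A, a kinesin of the central spindle, was at 33.8, 30.1 and 24.4 CPM with siCtrl and at 19.1 and 12.8 CPM with siMED12 (log2 fold change -0.85, SE 0.371, adjusted p = 0.333). BIRC5, the survivin subunit of the passenger complex, was at -0.36 on the log2 scale (SE 0.166, adjusted p = 0.385) without overlap of the groups. PRC1, which bundles midzone microtubules, was at 0.53 (SE 0.496) on a level of 5.21 to 15.9 CPM in this line.

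Chromosome genes had a median of -0.38, and 7 of 10 were under 0. TOP2A, the topoisomerase that untangles sister chromatids, was at 65.1, 63.5 and 60.3 CPM with siCtrl and at 43.5 and 42.3 CPM with siMED12, or -0.55 on the log2 scale (SE 0.221, adjusted p = 0.266). MKI67, which coats mitotic chromosomes and encodes the Ki-67 antigen, was at 20.8, 26.7 and 19.3 CPM with siCtrl and at 14.8 and 14.1 CPM with siMED12 (log2 fold change -0.59, SE 0.341, adjusted p = 0.528). Neither gene had overlapping groups, and neither passed the test. The condensin subunit NCAPG and the histone chaperone ANP32E were among the 3 highest of the better covered members, both at 0.18.

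All 5 tested kinetochore genes (median -0.34) and 9 of 11 spindle genes (median -0.28) were under 0. TUBB4B, a tubulin, was at -0.013 (SE 0.133), the smallest error of the 55 genes in this line. With such errors (median SE 0.284 over the members), the 95% interval of 40 members stayed above a fall by 1 on the log2 scale, and that of 15 reached it.

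**Figure D2:**
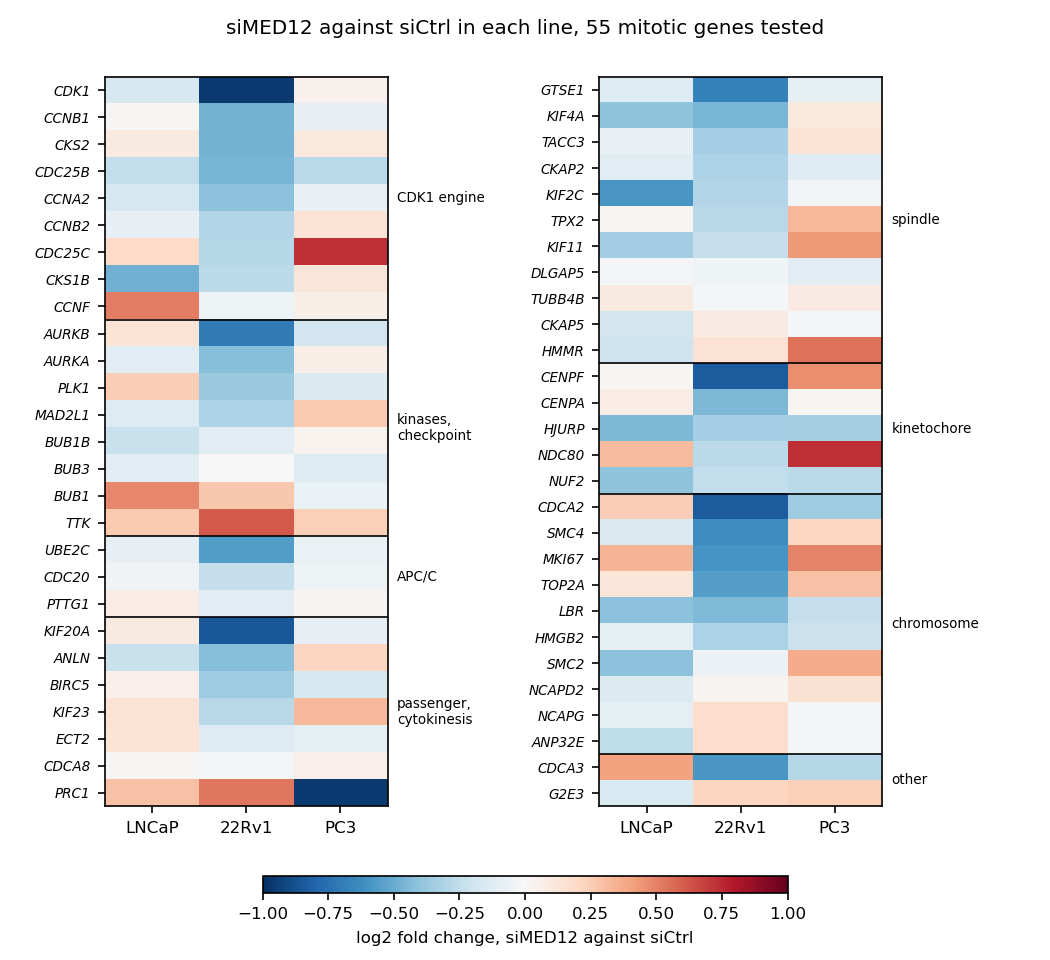
log2 fold change of siMED12 against siCtrl for the 55 tested mitosis and G2/M genes (rows, grouped by role) in each line (columns). Color runs from -1 (blue) to 1 (red). Values are under 0 in 46 of 55 rows for 22Rv1, in 31 for LNCaP and in 26 for PC3.

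Of the 22Rv1 libraries, siMED12 replicate 3 had the highest sum of PC3 markers. Without it, 42 of the 56 members that then passed the filter were under 0, against 49.9% of all genes, and the median was -0.27. That fit leaves 1 siMED12 library, replicate 1, whose PC3 marker sum (78.5 CPM) also lay above the siCtrl libraries (56.8 to 59.0 CPM). The part of PC3 transcripts in the 22Rv1 values was not tested.

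In LNCaP spheroids the mitotic genes showed no common direction. A log2 fold change under 0 was found for 31 of 55 members (50.4% of all genes), with a median of -0.080 against -0.0038 over all genes. None passed the edgeR test, where 0.416% of all genes did, and DESeq2 and limma likewise called 0. At an unadjusted p under 0.05, 1 member was lower (4.11% of all genes), and in 3 members every siMED12 library lay below every siCtrl library (6.75% of all genes). Those 3 were CKS1B, LBR, the lamin B receptor, and HJURP, the chaperone that loads CENP-A. In 1 member, CDCA3, every siMED12 library lay above every siCtrl library. It was at 69.6, 78.8 and 94.3 CPM with siCtrl and 114.7, 116.1 and 96.6 CPM with siMED12. The share of all genes in that order was not counted for LNCaP.

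HJURP had the lowest p of the members in LNCaP, at 76.2, 88.8 and 81.6 CPM with siCtrl and 58.8, 44.04 and 75.9 CPM with siMED12. Its log2 fold change was -0.45 (SE 0.203, adjusted p = 0.63). KIF2C, a microtubule-depolymerizing kinesin, had a log2 fold change of -0.58 (SE 0.314) and CKS1B one of -0.48 (SE 0.244), while CCNF at 0.51 (SE 0.330), BUB1 at 0.48 (SE 0.312) and CDCA3 at 0.40 (SE 0.2) were the highest. Of the proliferation markers, MKI67 was at 0.34, PLK1 at 0.25, TOP2A at 0.12, BIRC5 at 0.052, CCNB1 at 0.0088, CDC20 at -0.038 and CDK1 at -0.16, each with overlapping groups.

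Replicate 2 of LNCaP siMED12 stood apart. Its members summed to 3137 CPM, against 4399 and 4080.0 CPM in the other 2 siMED12 libraries and 3681 to 4276 CPM with siCtrl. In it 48 of the 55 members were below the siCtrl mean, and its mitochondrial share of counts was 12.9%, against 8.6% to 10.5% in the other LNCaP libraries. Without this library 20 of 55 members were under 0 (50.1% of all genes) and the median was 0.071, so the sign of the LNCaP median rested on it.

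In PC3 spheroids no member passed the edgeR test (0.0% of all genes did), and 0 were lower at an unadjusted p under 0.05 (2.36% of all genes). DESeq2 and limma called 0. Of the members 26 of 55 were under 0, against 55.6% of all genes, and the median was 0.029 against -0.038. In 1 member, PRC1, every siMED12 library lay below every siCtrl library (11.9% of all genes), and in 10 members (18.2%) every siMED12 library lay above, which held for 8.8% of all genes.

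MKI67 was among those 10, at 33.5, 38.9 and 37.6 CPM with siCtrl and 58.03 and 43.6 CPM with siMED12 in PC3. Its log2 fold change was 0.50 (SE 0.248, adjusted p = 0.974). KIF11, the motor that separates spindle poles, was at 0.42 (SE 0.345) and TPX2, the activator of AURKA, at 0.33 (SE 0.181). The lowest of the better covered members were HJURP at -0.33, CDCA3 at -0.29 and CDC25B at -0.27, all with overlapping groups. Values of CDK1 (0.042, SE 0.186), TOP2A (0.29, SE 0.207), CCNB1 (-0.085), BIRC5 (-0.16), PLK1 (-0.14) and CDC20 (-0.047) were also within the spread.

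**Figure D3:**
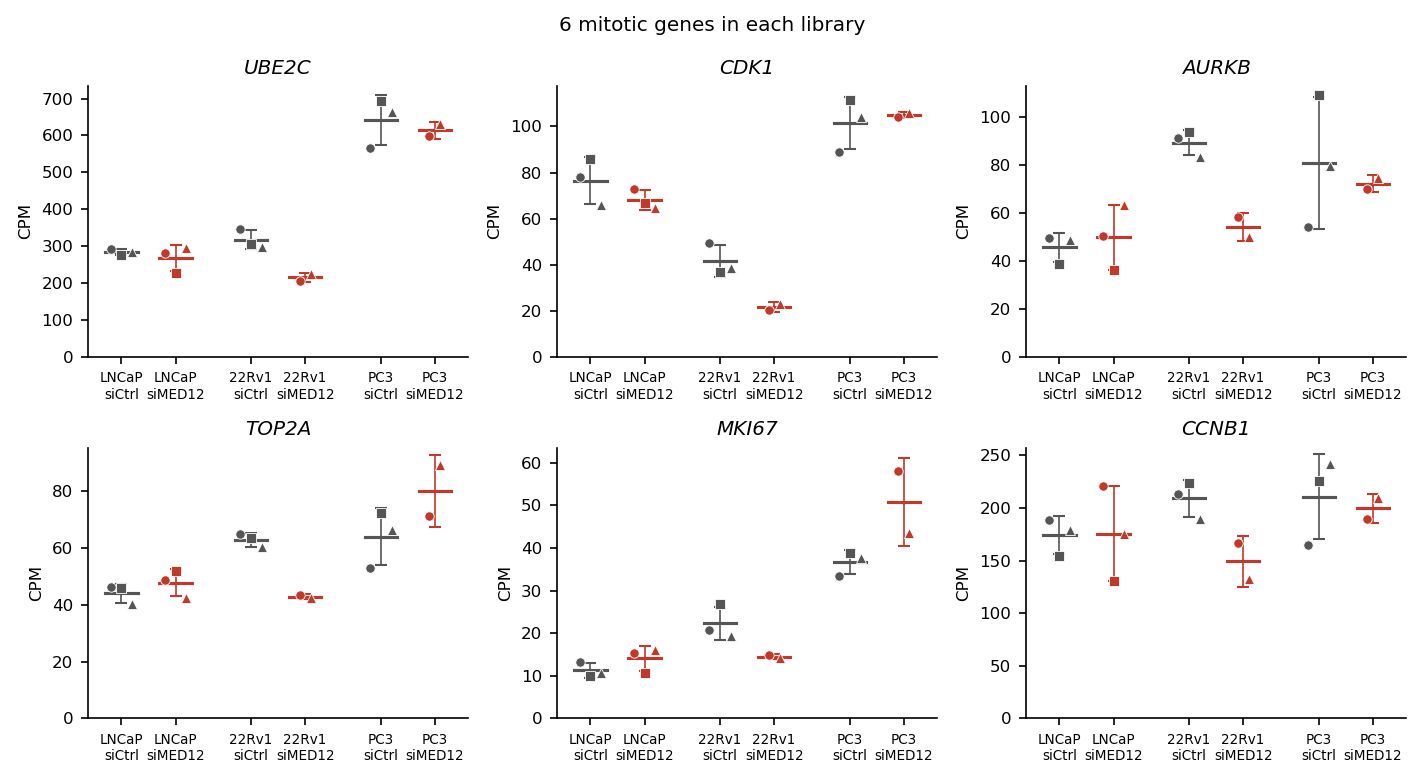
Level in CPM (y axes, from 0) of UBE2C, CDK1, AURKB, TOP2A, MKI67 and CCNB1 in each library, by line and treatment. Points are libraries (circle, square and triangle for replicates 1, 2 and 3), horizontal lines are means and bars are SDs. In 22Rv1 the siMED12 libraries of all 6 genes lie below the siCtrl libraries, an order that held for 22 of the 55 tested members (40.0%). CDC20, whose groups overlapped in 22Rv1, and TTK, which lay the other way, are not shown.

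Averaged over the lines, 0 members passed the edgeR test (0.265% of all genes) and 5 were lower at an unadjusted p under 0.05 (4.58% of all genes). DESeq2 and limma also called 0. The 5 were UBE2C (-0.24, SE 0.0784), LBR, CDC25B, CDK1 (-0.36, SE 0.126) and HJURP (-0.38, SE 0.152), with adjusted p of 0.315 to 0.453. LBR was at 144, 157 and 181 CPM with siCtrl and 121 and 115 CPM with siMED12 in 22Rv1, and its mean effect was -0.36 (SE 0.125).

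The difference between the lines was tested directly. For 22Rv1 minus LNCaP, 0 members passed (0.189% of all genes), and 6 had a lower effect in 22Rv1 at an unadjusted p under 0.05 (3.8% of all genes). CDCA3, an adaptor of mitotic ubiquitination, had the lowest of these, at -0.99 (SE 0.312, adjusted p = 0.312), and AURKB was at -0.85, CDK1 at -0.80, TOP2A at -0.67, PLK1 at -0.62 and UBE2C at -0.48. For 22Rv1 minus PC3, 0 passed (0.0946% of all genes) and 7 were lower at an unadjusted p under 0.05 (3.52% of all genes). These were CENPF at -1.29, MKI67 at -1.09, CDK1 at -0.998, TOP2A at -0.84, SMC4 at -0.83, TPX2 at -0.61 and UBE2C at -0.50. For PC3 minus LNCaP, 0 passed (0.0284% of all genes) and 0 were lower at an unadjusted p under 0.05 (2.56% of all genes). DESeq2 and limma called 0 in each of the 3 differences, so a larger effect in 22Rv1 was not established for any single member. The differences from 22Rv1 share the 22Rv1 libraries.

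Other cell cycle genes were read from a wider list of 132, of which 121 were tested. Besides the division machinery it held 16 cell cycle brakes, 9 G1 and S cyclins and kinases and 16 regulators of the program, so its pooled counts mix functions. In 22Rv1, 3 of them passed (1.84% of all genes) and all were lower, while 85 of 121 were under 0 with a median of -0.18, against 48.7% and a median of 0.0061 over all genes. UBE2S, which extends the ubiquitin chains that UBE2C starts, was at 2309, 2159 and 2505 CPM with siCtrl and at 1043 and 1299 CPM with siMED12 in 22Rv1, a fall by 0.99 on the log2 scale (SE 0.153, adjusted p = 1.83e-04). Its effect in 22Rv1 was also lower than in LNCaP by the test of the difference (-0.95, SE 0.211, adjusted p = 0.0471), a call that was lost with limma (adjusted p = 0.0892), with relative log expression scaling (0.0509), with only these lines in the fit (0.0722) and with any 1 of 8 libraries left out (0.0807 to 0.287). CENPM, a subunit of the constitutive centromere network, fell from 55.6 ± 6.89 CPM (SD, n = 3) to 27.3 ± 0.447 CPM (n = 2), or by 1.01 on the log2 scale (SE 0.25, adjusted p = 0.0244). BTG1, an antiproliferative gene, fell from 366 ± 30.7 CPM (n = 3) to 214 ± 42.6 CPM (n = 2), with an adjusted p of 0.00263. The CENPM call was lost with DESeq2 (adjusted p = 0.169). By edgeR it was lost with all genes of at least 1 count (adjusted p = 0.0655) and with only the 22Rv1 libraries (0.0595). The same held without siCtrl replicate 2 or 3 (0.0956 and 0.0539). It was also lost without either siMED12 library (log2 fold change -1.04 without replicate 1 and -0.996 without replicate 3). The BTG1 call was lost without siMED12 replicate 1 (log2 fold change -0.60). That of UBE2S in 22Rv1 held in all 15 fits.

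By list, 22 of 30 further kinetochore genes, 17 of 21 further spindle and cytokinesis genes and 13 of 16 cohesin and condensin genes were under 0 in 22Rv1. The corresponding medians were -0.19, -0.32 and -0.33. The other subunits and regulators of the APC/C were at a median of -0.048 (10 of 16 under 0), the G1 and S cyclins and kinases at -0.19 (7 of 9) and the cell cycle brakes at 0.013 (7 of 16). Of the regulators of the program 9 of 13 were under 0 (median -0.18), and none passed. FOXM1 and MYBL2, which encodes B-MYB, are named here after their values were seen. FOXM1 was at 137, 130.4 and 113 CPM with siCtrl and 83.8 and 75.7 CPM with siMED12 in 22Rv1 (log2 fold change -0.66, SE 0.186, adjusted p = 0.059). MYBL2 was at -0.84 (SE 0.287, adjusted p = 0.15).

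In LNCaP 1 of the 121 passed, where 0.416% of all genes did. CCNG2, an atypical cyclin linked to cell cycle arrest, fell from 269 ± 27.6 CPM (n = 3) to 150.4 ± 37.8 CPM (n = 3), a change of -0.84 in log2 units (SE 0.168, adjusted p = 0.0117 by edgeR). It did not pass with limma (adjusted p = 0.183), nor without siMED12 replicate 2 (0.186), siCtrl replicate 1 (0.0604) or siCtrl replicate 3 (0.112). In PC3 0 passed, with 62 of 121 under 0 (55.6% of all genes). Genes of DNA replication, a list of 44 with 40 tested, had 0 past the threshold in every line, yet 39 of 40 were under 0 in 22Rv1 (median -0.28), against 15 in LNCaP (median 0.054) and 16 in PC3 (median 0.041). The shares of all genes under 0 were 48.7%, 50.4% and 55.6% in these lines.

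Control spheroids differed in their mitotic genes by line. In siCtrl libraries the members summed to 3914 ± 318 CPM (SD, n = 3) in LNCaP, 4715 ± 240 CPM (n = 3) in 22Rv1 and 5324 ± 547.5 CPM (n = 3) in PC3. The ranges of LNCaP (3681 to 4276 CPM) and 22Rv1 (4469 to 4949 CPM) did not overlap, whereas those of 22Rv1 and PC3 (4704 to 5741 CPM) did. By mean level 27 of the 55 tested members were highest in PC3, 18 in 22Rv1 and 10 in LNCaP, and 29 were lowest in LNCaP.

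Between 22Rv1 and LNCaP, 23 members differed (43.2% of all genes), 18 higher and 5 lower in 22Rv1, where 22.0% of all genes were higher. DESeq2 called 15 members (27.3%) and 33.8% of the genes to which it gave an adjusted p. Between PC3 and LNCaP, 27 differed (54.7% of all genes), 21 of them higher in PC3 (29.2% of all genes). Between 22Rv1 and PC3, 21 differed (54.9% of all genes), with 9 higher in 22Rv1 (26.1% of all genes) and 12 lower. As a share of the 55, members differed between lines no more often than genes in general, and 18 of them passed in none of the 3 comparisons.

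DLGAP5, a spindle assembly factor, had the largest difference of the members. It was at 68.4, 70.4 and 60.7 CPM in PC3, at 16.6, 15.8 and 19.1 CPM in LNCaP and at 10.4, 5.01 and 8.98 CPM in 22Rv1. The 3 lines did not overlap, and the log2 difference of 22Rv1 minus PC3 was -2.97 (SE 0.275, adjusted p = 9.03e-11). CDK1 had the same order, at 102 ± 11.4 CPM in PC3, 76.5 ± 10.2 CPM in LNCaP and 41.6 ± 6.88 CPM in 22Rv1 (n = 3 each). It was lower in 22Rv1 than in PC3 by 1.28 (log2 difference -1.28, adjusted p = 8.74e-07) and than in LNCaP (-0.85, adjusted p = 7.87e-04).

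MKI67 had another order. It was at 33.5, 38.9 and 37.6 CPM in PC3, 20.8, 26.7 and 19.3 CPM in 22Rv1 and 13.3, 10.0 and 10.6 CPM in LNCaP. The lines did not overlap, and PC3 was above LNCaP by 1.71 on the log2 scale (SE 0.294, adjusted p = 1.06e-05). ANLN, the actin-binding scaffold of the cleavage furrow, and CDC25B were also higher in PC3 than in LNCaP, by log2 differences of 1.64 and 1.54. AURKA and CENPA, the centromeric histone, were lower in 22Rv1 than in PC3, by log2 differences of -1.19 and -1.66.

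LBR and ANP32E were highest in 22Rv1. LBR was at 144, 157 and 181 CPM there, at 53.0, 45.8 and 56.2 CPM in LNCaP and at 47.7, 66.2 and 67.9 CPM in PC3. Its log2 difference was 1.63 (SE 0.183) from LNCaP and 1.40 (SE 0.176) from PC3, whose own ranges overlapped. CKS1B, a CDK-binding protein of the SCF ubiquitin ligase, was low in LNCaP, at 46.4, 45.8 and 44.5 CPM, against 183.5, 169 and 123 CPM in 22Rv1 (log2 difference 1.79, SE 0.191, adjusted p = 3.73e-09). KIF23, a central spindle kinesin, was higher in 22Rv1 than in LNCaP by 1.48 on the log2 scale.

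A smaller group was highest in LNCaP. HJURP was at 76.2, 88.8 and 81.6 CPM there and at 38.4 to 41.6 CPM in 22Rv1 (log2 difference -1.02, SE 0.222, adjusted p = 3.56e-04). HMMR, a spindle and hyaluronan-binding protein, was lower in PC3 than in LNCaP (-1.90, SE 0.360). SMC4, a condensin subunit, and G2E3, a ubiquitin ligase, were lower in 22Rv1 than in LNCaP, by log2 differences of -0.66 and -1.46. Outside this group, the kinetochore gene NDC80 was also lower in PC3 than in LNCaP (-1.49, SE 0.457), at 2.89 to 9.46 CPM in PC3, while 22Rv1 and LNCaP had overlapping levels of it (log2 difference 0.027, SE 0.371). The genes that differed between lines thus included members of every role, in opposite directions for pairs such as DLGAP5 and HMMR within the spindle group.

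**Figure D4:**
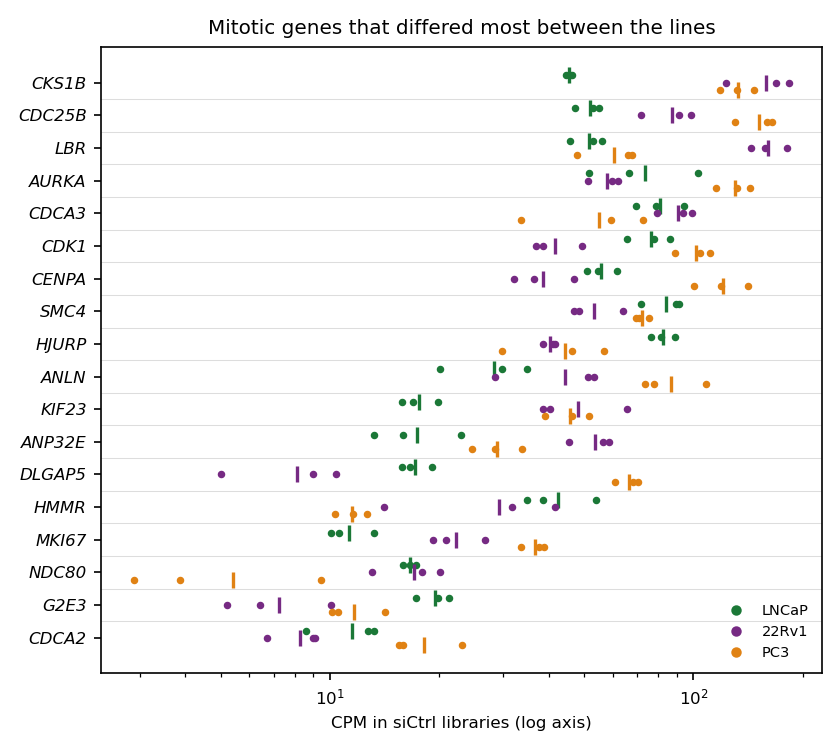
Level in CPM (x axis, log scale) of 18 mitosis and G2/M genes in the siCtrl libraries of LNCaP, 22Rv1 and PC3. Points are the 3 libraries of each line and vertical ticks their mean. DLGAP5 runs from 5.01 CPM in 22Rv1 to 70.4 CPM in PC3, and LBR and ANP32E are highest in 22Rv1.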

How the data were processed

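The authors aligned and counted the 3′ tags with STARsolo against Gencode release 43 (GRCh38.p13), and deposited raw counts per gene. They also deposited log2 CPM of the filtered genes, which was recomputed from the counts (edgeR filter, TMM, prior count 2) to within 5e-14 and served for the limma alternative. Whether molecular identifiers were collapsed is not given in the sources used here. Libraries were grouped by their labels. Counts entered a single edgeR model (version 4.0.16, R 4.3.3, glmQLFTest) of all 16 libraries with 6 group means (minimum count 10, minimum total 15, TMM). P-values were adjusted over the 10566 genes of a contrast by the Benjamini-Hochberg method, with a threshold of 0.05. The SE is the size of the log2 fold change divided by the square root of its F statistic. DESeq2 1.42.0, limma 3.58.1, other scalings, filters and left-out libraries were alternatives. Fits were tested on simulated data. Libraries of 1 group differed by 1.6 to 3.43 times the counting variance, so none was a copy.

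Gene coordinates come from Gencode release 44 on GRCh38 and promoters from RefSeq. The genes and lists were chosen with earlier results of these data known. Named genes were those past 0.05 for siMED12, the 3 highest and 3 lowest fold changes per line at 20 CPM or more, 8 proliferation markers (MKI67, TOP2A, CDK1, CCNB1, PLK1, CDC20, BIRC5 and UBE2C), up to 5 of each sign per line difference among called genes without overlap, and genes of the wider lists past 0.05. Other members were named to describe their role, after their values were seen.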

Additional observations from a re-analysis of the deposited data

Results flagged for a closer look

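The median log2 difference of the members from the siCtrl mean of the line was negative in both siMED12 libraries of 22Rv1 (-0.26 and -0.37) and positive in both of PC3 (0.044 and 0.068). The means of the 2 lines differed by -0.37 (22Rv1 minus PC3), and this difference was not tested. The siCtrl libraries of PC3 themselves lay between -0.16 and 0.12, a range that holds both of its siMED12 values, and without PC3 siCtrl replicate 1 the median effect in PC3 was -0.040.

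Effects of siMED12 differed between lines by their test for 2 listed genes that are not members. UBE2S had a lower effect in 22Rv1 than in LNCaP (log2 difference -0.95, adjusted p = 0.0471 by edgeR), a call lost with limma, with relative log expression scaling, with only these lines in the fit and without any 1 of 8 libraries (adjusted p from 0.0509 to 0.287). CAV1, a PC3 marker, had a higher effect in 22Rv1 than in PC3 (log2 difference 1.89, adjusted p = 0.0101 by edgeR), with its higher level in 22Rv1 in the same 2 siMED12 libraries whose PC3 marker sum was 78.5 and 139.8 CPM. This call was lost with limma (adjusted p = 0.13) and without 22Rv1 siCtrl replicate 2 (0.079), siCtrl replicate 3 (0.0528) or siMED12 replicate 3 (0.178).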

How the results depend on the processing

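The number of members called in 22Rv1 was 0 with DESeq2, 0 with all genes of at least 1 count, 0 with only the 22Rv1 libraries in the fit and 0 to 0 when single libraries were left out, against 2 (UBE2C and CDK1) with limma and 2 with the replicate block (UBE2C, and CDK1 at -1.03 with an adjusted p of 0.0419). The share of all genes called is given only for the main fit in 22Rv1 (1.82% of members, 1.84% of all genes). The counts from the alternative 22Rv1 fits are therefore not set against a background. Between 22Rv1 and LNCaP siCtrl, DESeq2 called 15 members, where edgeR called 23, and 33.8% of all genes, where edgeR called 43.2%. The 22Rv1 median ran from -0.45 to -0.27 with single libraries left out. The PC3 median was 0.11 without TMM, 0.11 with the replicate block, 0.010 at 20 CPM or more and 0.059 with only PC3 libraries, and ran from -0.040 to 0.12 with single libraries left out; without siCtrl replicate 1 it was -0.040. The summed level in PC3 siMED12 was 5644 CPM without TMM. A CHR before the start site was found in 50.8% of windows. Without LNCaP siMED12 replicate 2, 20 of 55 members were under 0, against 50.1% of all genes. Without PC3 siMED12 replicate 3, which leaves 1 siMED12 library, the lower non-overlapping members numbered 5 (9.09%), against 27.5% of all genes. These left-out libraries were chosen after seeing the data.

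Fold changes near 0 changed sign. In LNCaP, CCNB1 was -0.016 with limma and -0.0073 with the replicate block, and CDC20 was 0.0079 without TMM. In PC3, with the replicate block, CDCA3 was 0.053, CCNB1 0.0024, CDC20 0.032 and UBE2C 0.0042, and without TMM CDC20 was 0.027 and UBE2C 0.0094. With single libraries left out, LNCaP values ran from -0.17 to 0.18 for CCNB1, -0.13 to 0.090 for CDC20, -0.015 to 0.21 for BIRC5 and -0.15 to 0.028 for UBE2C. In 22Rv1 they ran from -0.0135 to 0.31 for NCAPG and -0.12 to 0.44 for ANP32E, and in PC3 from -0.70 to 0.15 for CDCA3, -0.041 to 0.12 for CDK1, -0.23 to 0.011 for CCNB1 and -0.26 to 0.17 for CDC20. The cause of these changes was not tested. In all, 1002 gene values kept direction and side of the threshold, 24 changed sign, and 56 lost and 2 gained the threshold. Of the counts, medians, sums and shares, 211 stayed within the limits set for them and 23 moved.

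Deviations of same-numbered libraries correlated at 0.0787 to 0.253, and those of differently numbered libraries at -0.253 to 0.092. Where a group has 2 libraries, their deviations mirror each other, so such values differ only in sign. Same-numbered values were not all above 0.1, and the main fit did not pair the samples. Whether equal numbers mark a shared culture was not tested. With the replicate block UBE2C in 22Rv1 had an adjusted p of 0.0103 by edgeR. The block could not be fitted for the siCtrl comparisons, where numbers lie within lines, and changed no other count of member calls; CENPM missed the threshold with it (adjusted p = 0.0635). A fit with only the lines compared does not apply to the mean over lines. With 2 siMED12 libraries in 22Rv1 and PC3, and 479118 to 993807 counts a library, modest changes of low genes were not detectable.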
